A study of Mus musculus with 17 samples.

Results

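The RNA of lung-derived cells was set against that of lymph node (LN) and bone marrow (BM) derived cells, across 12 bulk RNA-seq libraries of a mouse model of breast cancer. Of the 14976 genes tested, 1426 were differentially expressed genes (DEGs) whose 4 lung values all lay beyond all 8 LN and BM values. In 701 of them lung was higher (called lung-high here), and in 725 it was lower (called lung-low). Levels are in TPM, transcripts scaled to a fixed total per library, and testing required 1 TPM or more in 2 of the 12 libraries. DEGs were called by limma on log2(TPM + 1), with the CD44 label as a term, at an absolute log2 difference above 2 and an adjusted p below 0.05 (Benjamini-Hochberg). All cells came from female FVB/NJ mice of 10 to 12 weeks that carry the MMTV-PyMT transgene, in which a viral promoter active in mammary epithelium drives the polyoma middle T oncoprotein. Organs with tumor were dissociated, cultured for about a month to favor cancer cells, and sorted as EpCAMhigh cells with either low (CD44low) or high (CD44high) surface CD44, and the study calls the resulting lines clonal isolates. Each of the 6 groups, CD44low and CD44high from lung, LN and BM, had 2 libraries. The 2 mammary fat pad (MFP) libraries of the series and 3 single-cell libraries (lung CD44high, lung CD44low and LN CD44high) gave readings that the choice of genes did not use. The study has an MFP-derived cell line stand for the primary tumor, so MFP here means cultured cells and not tumor tissue. The labels name no treatment. Values of a gene are quoted as lung CD44low replicates 1 and 2, then lung CD44high replicates 1 and 2.

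Mammary carcinoma cells are epithelial: they hold to each other through E-cadherin, claudins and desmosomes, are stiffened by keratin filaments, and keep this state through transcription and splicing factors such as Grhl2, Ehf and Esrp1. In epithelial-mesenchymal transition (EMT), repressors of the Zeb and Snail families bind E-box sequences in epithelial promoters, adhesion genes fall, and cells make fibronectin, collagens and other matrix proteins. The same matrix genes are the normal products of fibroblasts and smooth muscle cells, which are abundant in lung.

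The check of the sort marker went against its label in lung. *Epcam* (ENSMUSG00000045394.9, mm10 chromosome 17 from 87635979 to 87651129), the epithelial adhesion molecule used to sort every line, was listed at 0, 0, 0.23 and 0.86 TPM in the 4 lung libraries. It had 315 to 941 TPM (median 634) in LN and BM and 837 and 725 TPM in MFP. Of 10 epithelium markers chosen for this check, *Epcam* among them, 8 were under 1 TPM in all 4 lung libraries, and 2 of these, *Cldn7* and *Krt19*, were so in all 8 LN and BM libraries too. The summed level of the 10 was 1.74 to 87.6 TPM in lung against 2212 to 4454 TPM in LN and BM. Fibroblast markers summed to 85.7 to 5120 TPM in lung and 3.61 to 19.9 TPM in LN and BM. In lung CD44high this was mostly *Dcn*, a matrix proteoglycan gene, without which the libraries had 28.6 and 6.87 TPM against 3.61 to 18.9 TPM in LN and BM. In both lung CD44high libraries *Col1a1*, *Col1a2*, *Lum*, *Thy1* and *Twist2* were at 0 to 0.1 TPM, and *Fap* was at 0 in all lung libraries. The other markers were present there: *Pdgfra* had 21.45 and 4.51 TPM against 1.11 to 9.1 TPM in LN and BM. *Pdgfrb* had 5.92 and 2.09 TPM against 1.34 to 9.9 TPM, and *Col3a1* 1.08 and 0.2 TPM against at most 0.02 TPM. Endothelium, lung epithelium and lymphocyte markers summed to at most 0.31, 0.79 and 1.37 TPM in any lung library. Macrophage markers summed to 10.0 to 39.1 TPM in lung against 2.38 to 8.62 TPM, and mesothelium markers to 18.5 to 25.4 TPM against 3.81 to 18.6 TPM. Each of these sums was mostly 1 gene in lung. Without *Lyz2* the macrophage sum was 3.79 to 5.02 TPM in lung against 1.41 to 5.47 TPM, with *Adgre1*, *C1qa* and *Mrc1* at 0 in all 12. *Wt1*, at 18.2 to 22.6 TPM in lung, was 0 in LN and BM, while *Msln* went the other way, at most 1.87 TPM in lung against 3.76 to 18.6 TPM. Smooth muscle and pericyte markers spanned 0.83 to 745 TPM in lung against 3.30 to 8.77 TPM, the top value being mostly *Acta2*. Marrow neutrophil and progenitor markers spanned 15.9 to 136 TPM against 0.24 to 329 TPM, and osteoblast and adipocyte markers 27.0 to 47.1 TPM against 11.7 to 29.9 TPM. *Cd44* itself, the other sort marker, was at 12.2, 21.6, 21.9 and 12.1 TPM in lung, below its 43.8 to 147 TPM (median 51.4) in LN and BM, and it was no higher in the lung libraries labelled CD44high. Its log2 difference of -1.89 passed the fold threshold after median-ratio scaling (-2.17), without BM CD44low replicate 1 (-2.01) and without lung CD44high replicate 1 (-2.13). The 2 lung CD44high libraries also had 15.9% and 18.4% of their TPM in mitochondrial genes, against 4.28% to 10.1% elsewhere. The part of other cells, of culture and of these mitochondrial shares in the differences below was not tested. In bulk RNA fewer cells of a type and less RNA per cell cannot be told apart.

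In all, 1076 genes were DEGs higher in lung (7.18% of those tested) and 834 were lower (5.57%). All 4 lung values lay above all 8 others for 13.6% of genes tested and below them for 12.7%, and the lung-high and lung-low genes are 4.68% and 4.84% of genes tested. The median log2 difference over all genes was 0.22, and dividing TPM by the median ratio between libraries brought it to -0.01. That scaling turned the balance of directions to 821 higher and 1004 lower, with 541 of the 701 lung-high and all 725 lung-low genes still called. Against each organ by itself, 627 lung-high and 635 lung-low genes were DEGs in the same direction, where 7.97% (LN) and 6.37% (BM) of all genes were higher and 5.24% and 6.22% lower. Within the CD44 labels, 403 lung-high and 560 lung-low genes were DEGs the same way among CD44high and among CD44low libraries (7.6% and 10.6% of all genes higher, 6.88% and 6.22% lower). The members were chosen on these same 12 libraries, so counts by organ and by label describe them and are no separate support. Many members were near 0 on their low side: 223 of 701 lung-high genes were under 1 TPM in all 8 LN and BM libraries, and 42 were at 0. Likewise, 318 of 725 lung-low genes were under 1 TPM in all 4 lung libraries and 91 were at 0. A gene tested through 1 side alone could differ in 1 direction alone, so counts and medians over the gene groups below are a description. Such genes, under 1 TPM throughout lung, were 19 of 27 for epithelial adhesion and keratins and 16 of 21 for epithelial regulators. Under 1 TPM throughout LN and BM were 11 of 32 for mesenchymal matrix, 15 of 50 for secreted factors and 7 of 13 for imprinted genes. At the threshold, *Snx32* was just inside with 10.5, 10.9, 6.36 and 5.69 TPM against 0.25 to 3.05 TPM (median 1.28), a log2 difference of 2.00, and *Eno1b* was just outside at -1.9997. *Snx32* lost its call without any of 7 libraries (1.90 to 1.99) and *Eno1b* gained one without any of 4 (-2.20 to -2.05).

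**Figure D1:**
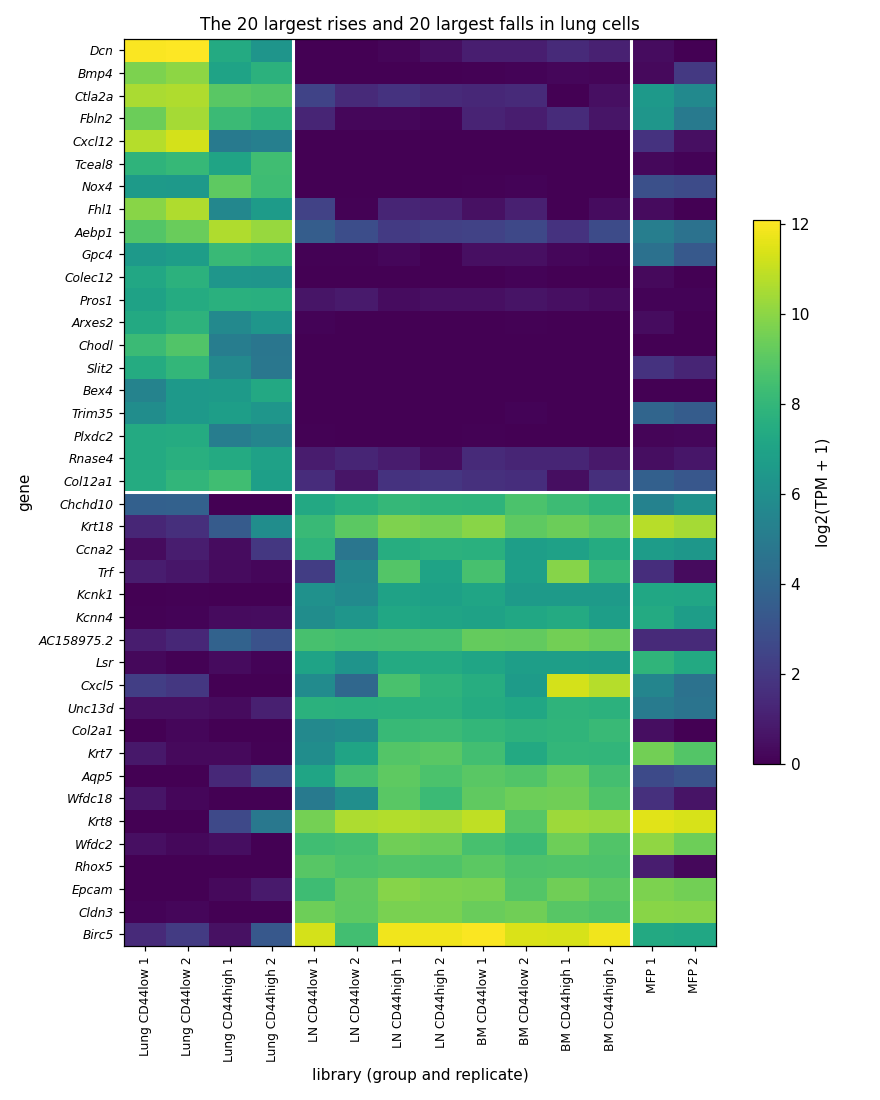
Level of the 20 genes with the largest rise (top) and the 20 with the largest fall (bottom) in lung, as log2(TPM + 1) by color, in the 4 lung, 8 LN and BM and 2 MFP libraries. The top genes are darker in the 8 LN and BM columns than in lung. The bottom genes are darker in the 4 lung columns than in LN and BM, with *Krt8* and *Krt18* lighter in lung CD44high, and *Rhox5*, *Col2a1* and *Wfdc18* are dark in MFP as well.

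Epithelial adhesion genes and keratins fell in lung. Of 27 tested genes for epithelial adhesion and keratins, 18 were DEGs lower in lung, all of them lung-low, none was higher, and the median log2 difference was -3.02. Claudin 3 (*Cldn3*), a tight junction protein, had 0.1, 0.16, 0 and 0 TPM in lung and 431 to 808 TPM (median 658) in the 8 LN and BM libraries, a log2 difference of -9.19 (SE 0.19, adjusted p = 1.44e-11). The MFP libraries held it at 984 and 958 TPM, so the lung lines stood apart from MFP too. For *Epcam* the log2 difference was -8.95 (SE 0.24, adjusted p = 1.56e-10). *Cdh1*, which encodes E-cadherin, was listed at 0, 0, 0 and 0.03 TPM against 18.7 to 51.5 TPM (median 28.4), with a log2 difference of -4.97 (SE 0.25, adjusted p = 2.32e-08). The desmosome and basal keratin genes *Dsp*, *Pkp1* and *Krt14* were at 0 in all 4 lung libraries. Lung keratins were not all silent. *Krt8* had 0, 0, 5.26 and 27.8 TPM, and its partner *Krt18* 1.42, 2.11, 10.1 and 58.9 TPM. Both lung CD44high libraries exceeded both CD44low libraries and stayed below the lowest LN or BM value (498 and 287 TPM). *Cd24a*, a surface glycoprotein of luminal cells, followed that order most strongly, at 4.88, 7.24, 184 and 220.1 TPM against 444 to 1711 TPM (median 683). For these 3 genes the lung difference itself differed between CD44 labels, by 3.33, 2.89 and 5.32 on the log2 scale (adjusted p = 0.0362, 0.0398 and 1.69e-05). Such a difference was called for 3.01% of all genes upward and 6.55% downward. *Perp*, a desmosome protein, did not pass the test, with a log2 difference of 0.36.

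The regulators of the epithelial state went the same way: 14 of 21 tested genes were DEGs lower in lung, all of them lung-low, and 1 was higher. *Grhl2*, a transcription factor that sustains E-cadherin and claudin expression, had 0, 0, 0.24 and 0 TPM against 9.14 to 22.6 TPM (median 12.2), a log2 difference of -3.75 (SE 0.25, adjusted p = 2.77e-07). *Esrp1*, the epithelial splicing regulator, was at 0 in every lung library and at 7.61 to 36.0 TPM (median 10.4) in LN and BM. *Spint1*, *Tfap2c* and *Elf3* were at 0 in all 4 as well. The tricellular junction receptor *Lsr* had 0.18, 0.05, 0.27 and 0.08 TPM against 75.9 to 168 TPM (median 118) and fell by 6.73 on the log2 scale (SE 0.21, adjusted p = 4.09e-10). The exception that rose was *Gata3*, a luminal transcription factor, with 2.14, 2, 187 and 305 TPM against 1.15 to 4.08 TPM (median 2.35). Its lung CD44low values overlapped those of LN and BM, and its log2 difference was 3.04 (SE 0.96, adjusted p = 0.0189). It was not called without lung CD44high replicate 1 (2.37, adjusted p = 0.0801) or replicate 2 (2.10, adjusted p = 0.0832).

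Promoter sequence was read for these genes because they fell together. RefSeq promoters of build GRCm38.p6, from 250 bases before to 50 after a start, were matched by symbol for 10044 of 14956 tested symbols, and the start nearest the gene model's 5′ end was taken. The E-box CACCTG, the word that Zeb and Snail factors bind, was searched on both strands. It was in 9 of 12 matched promoters of the lung-low adhesion and keratin genes and 4 of 6 of the lung-low regulators. It was in 16.9% of all tested promoters, 23.4% of lung-low and 14.3% of lung-high promoters. These matches are a description of letters and not of binding. The promoters of the sort marker *Epcam*, of *Cldn4* and of *Lsr* are shown as examples, with their 2, 2 and 4 matches in capitals. Others held several too, such as *Spint2* with 3 and *Rab25* with 2.
Epcam promoter, chr17:87635729-87636028, plus strand: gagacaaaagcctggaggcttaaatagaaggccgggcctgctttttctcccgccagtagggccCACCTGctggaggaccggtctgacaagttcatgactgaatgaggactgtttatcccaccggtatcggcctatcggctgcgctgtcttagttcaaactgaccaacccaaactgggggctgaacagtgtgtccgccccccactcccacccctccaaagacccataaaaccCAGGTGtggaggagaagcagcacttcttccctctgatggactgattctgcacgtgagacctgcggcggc
Cldn4 promoter, chr5:134946885-134947184, minus strand: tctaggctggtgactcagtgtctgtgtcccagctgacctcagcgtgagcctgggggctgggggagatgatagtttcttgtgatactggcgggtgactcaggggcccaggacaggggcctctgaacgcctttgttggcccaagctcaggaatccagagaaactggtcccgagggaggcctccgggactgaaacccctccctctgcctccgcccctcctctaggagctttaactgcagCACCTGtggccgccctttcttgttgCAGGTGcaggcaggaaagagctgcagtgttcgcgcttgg
Lsr promoter, chr7:30973420-30973719, minus strand: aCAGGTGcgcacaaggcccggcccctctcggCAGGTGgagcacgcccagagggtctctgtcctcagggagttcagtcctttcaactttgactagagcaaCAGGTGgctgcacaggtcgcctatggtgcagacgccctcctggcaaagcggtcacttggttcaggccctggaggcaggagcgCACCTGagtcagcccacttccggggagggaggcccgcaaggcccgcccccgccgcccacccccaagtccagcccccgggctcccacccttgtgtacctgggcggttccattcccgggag

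On the mesenchymal side, 4 of 15 tested EMT and mesenchymal regulators were DEGs higher in lung and none lower. *Zeb1*, a repressor of E-cadherin, had 46.1, 49.98, 58.6 and 38.6 TPM in lung against 1.32 to 9.25 TPM (median 4.07) in LN and BM, a log2 difference of 3.38 (SE 0.32, adjusted p = 5.64e-06). All 4 lung libraries were near each other. *Aebp1*, a matrix-associated transcriptional regulator, reached 459, 638, 1589.7 and 1174 TPM against 2.40 to 10.9 TPM (median 4.67), and its log2 difference of 7.22 (SE 0.37, adjusted p = 3.06e-08) was the largest of the list. *Cdh11*, a cadherin of mesenchymal cells, was at 17.1, 20.8, 4.95 and 3.70 TPM where LN and BM had 0 to 0.03 TPM. *Zeb2* had 16.6, 21.2, 41.5 and 31.1 TPM against 3.40 to 12.5 TPM (median 4.92), all lung values above the rest, but its log2 difference of 1.92 missed the fold threshold, as did that of *Vim* (1.65). *Zeb2* passed without BM CD44low replicate 2, LN CD44low replicate 1 or either lung CD44low replicate (2.02 to 2.15). *Snai1* split the lung lines, with 58.4, 50.6, 0 and 0.07 TPM against 0.34 to 3.29 TPM (median 0.745) (log2 difference 1.96). It passed without BM CD44high replicate 1, either LN CD44high replicate or either lung CD44high replicate (2.08 to 2.61). Its value was 1.29 without lung CD44low replicate 1. *Twist1* had 5.77, 7.55, 3.29 and 3.79 TPM against 0.67 to 4.99 TPM (median 1.53), with lung and other values overlapping.

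**Figure D2:**
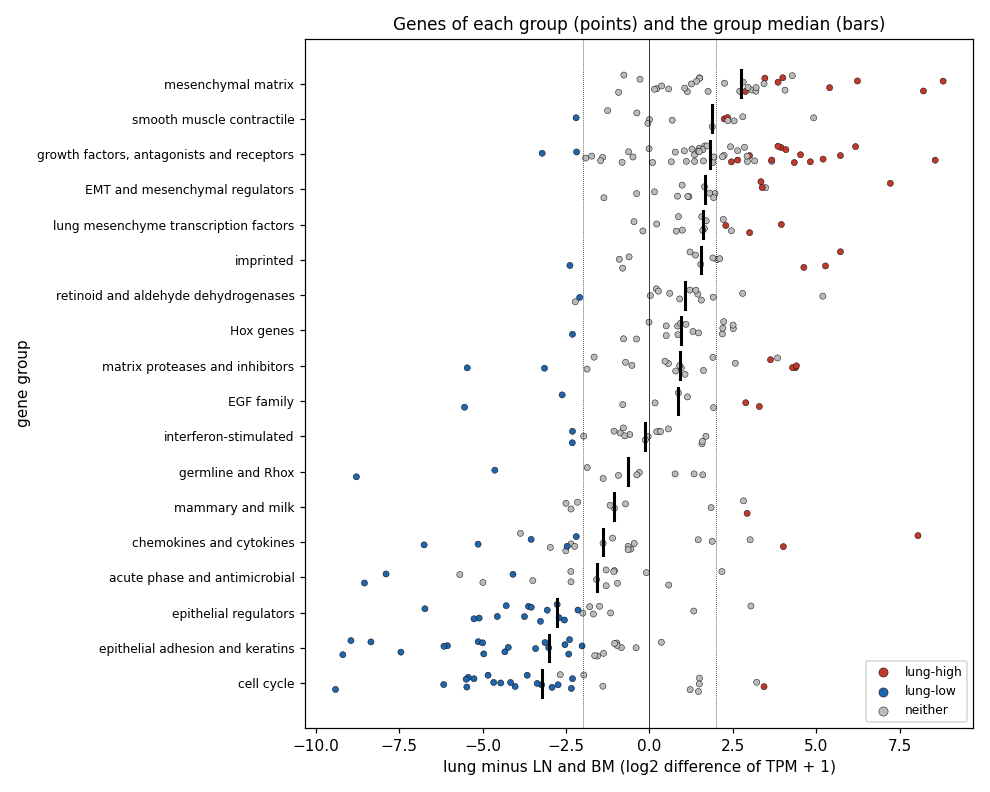
Log2 difference of lung from LN and BM for each tested gene (points) of 18 gene groups, with the group median as a bar and dotted lines at the fold threshold. Cell cycle and the 2 epithelial groups lie furthest to the left, with medians of -3.23, -3.02 and -2.77, and mesenchymal matrix furthest to the right at 2.76.

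Matrix genes were higher in lung mostly through the CD44low libraries. Among 32 tested mesenchymal matrix genes, 15 were DEGs higher in lung and none was lower, but 8 were lung-high and 23 of the 32 differed between CD44 labels in their lung difference. The filter had a part in this: 8 of the 32 reached 1 TPM in the lung CD44low libraries only, and 6 of the 15 DEGs were among them. *Fbln2*, *Col12a1* and *Fn1* were high in all 4 lung libraries. Fibulin 2, an elastic fiber protein, had 665, 1391, 298 and 228 TPM against 0.1 to 1.78 TPM (median 0.785), a log2 difference of 8.21 (SE 0.38, adjusted p = 1.14e-08). The fibril-associated collagen *Col12a1* had 169.7, 248, 327 and 111 TPM against 0.36 to 2.74 TPM (median 2.02), a log2 difference of 6.23 (SE 0.35, adjusted p = 6.92e-08). Fibronectin was abundant in all organs and higher in lung, at 2012, 4136, 3669 and 956 TPM against 111 to 657 TPM (median 188). *Dcn*, which encodes the collagen-binding proteoglycan decorin, had the largest rise of all lung-high genes, 8.80 (SE 0.84, adjusted p = 5.95e-06) on the log2 scale. It stood at 4091, 4315, 166 and 78.9 TPM, so the lung CD44high libraries exceeded the 1.75 TPM of the highest LN or BM library and were still far under the CD44low ones. Other genes were high in lung CD44low libraries alone, such as the proteoglycan biglycan (*Bgn*), with 7905, 9601, 1.71 and 0.65 TPM against 1.60 to 14.7 TPM (median 7.68). *Col1a1* was another, with 83.3, 257, 0.08 and 0.02 TPM against 0.12 to 1.98 TPM (median 0.72). Neither was a DEG across all 4 lung libraries, since adjusted p was 0.0637 and 0.0562. The lung difference of *Bgn* among CD44high libraries was lower than among CD44low libraries by 12.27 (adjusted p = 2.16e-06). Both were called without lung CD44high replicate 1 or 2, at 5.68 and 5.95 for *Bgn* and 3.75 and 3.78 for *Col1a1*. *Col1a1* was called also without BM CD44high replicate 1 (3.07) or LN CD44high replicate 1 (3.09). Without lung CD44low replicate 1 or 2, *Bgn* was at 2.80 and 2.69, and without replicate 2 *Col1a1* was at 1.55.

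Across all lung-high genes, the difference between the labels ran both ways. Over all genes tested it passed the test in 9.56%, and the members were read against that share. In 154 of the 701 (21.97%) it passed, with 47 further from LN and BM in CD44high and 107 further in CD44low libraries. The choice of members used these same values and left out rises in which 1 label overlaps LN and BM, so this share depends on that choice. Among the 375 DEGs higher with overlap, 189 (50.4%) passed. In lung-low genes the difference between labels passed in 66 of 725 (9.1%), near the share over all genes, with 40 further in CD44high and 26 in CD44low. Without lung CD44low replicate 1 or 2, the count of all genes whose lung difference was lower in CD44high fell from 981 to 549 or 493, so it leans on both libraries of that group.

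**Figure D3:**
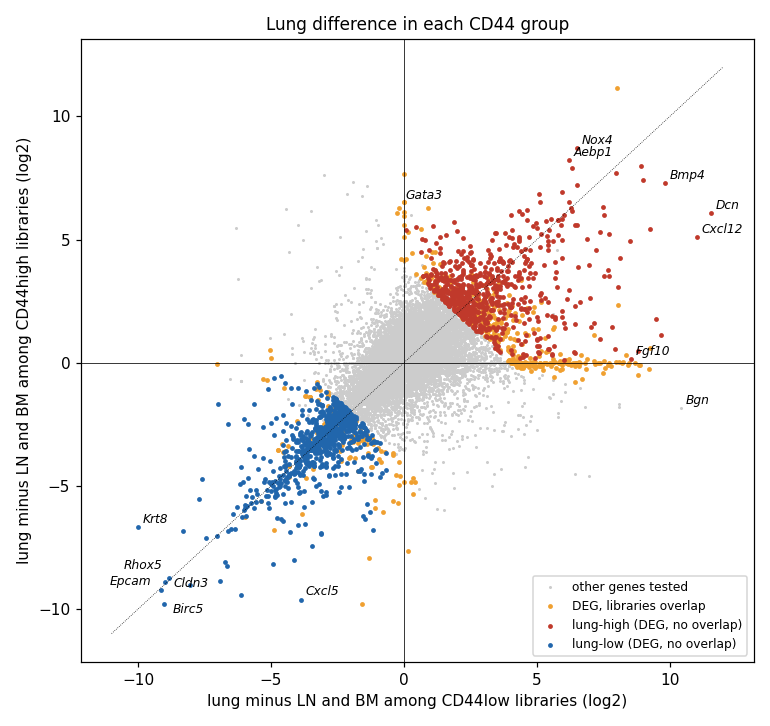
Lung difference from LN and BM among CD44low libraries (x axis) and among CD44high libraries (y axis), both log2, for the 14976 genes tested, with lung-high genes in red, lung-low genes in blue and other DEGs in orange. The orange band along the horizontal axis is DEGs that rose in lung CD44low alone, and *Epcam*, *Cldn3*, *Rhox5* and *Birc5* lie close to the dotted diagonal.

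Secreted factors and their antagonists and receptors gave 22 DEGs higher in lung and 2 lower among 50 tested, with 14 lung-high genes. *Bmp4*, a ligand of the bone morphogenetic protein pathway that patterns lung, had 840.2, 1055, 128 and 216 TPM in lung and at most 0.16 TPM in LN and BM. Its log2 difference was 8.56 (SE 0.41, adjusted p = 1.41e-08), and the CD44low libraries were the higher ones. *Ccn5*, a matricellular protein, was high without regard to the label, at 1603, 1654, 2456 and 2276 TPM against 33.7 to 112 TPM (median 47.3) (log2 difference 5.2 (SE 0.26, adjusted p = 2.06e-08)). The BMP antagonist *Chrd* and the ligand *Wnt5a* were highest in lung CD44high, at 4.12, 5.38, 31.0 and 21.8 TPM and 2.45, 3.60, 49.3 and 31.3 TPM. *Wnt5a* was at 0 in all 8 LN and BM libraries. *Fgf10*, a mesenchymal ligand for budding lung epithelium, was the reverse, at 341, 410.2, 0.06 and 0.13 TPM, also with 0 in all 8. Insulin-like growth factors followed the matrix pattern: *Igf1* had 80.2, 92.5, 5.49 and 6.88 TPM against at most 2.07 TPM in LN and BM. *Igf2* had 196, 224, 16.5 and 9.42 TPM against at most 0.08 TPM. The binding protein *Igfbp4* had 2317, 1519.7, 206 and 71.4 TPM against 0.79 to 16.2 TPM (median 6.65), so here too the CD44low libraries were the higher. Among receptors and carriers, *Tgfbr3*, the TGF-beta coreceptor, had 53.7, 53.3, 182 and 80.2 TPM against 0.51 to 12.4 TPM (median 4.55). *Ltbp1*, which stores TGF-beta in the matrix, had 359, 606, 372 and 296 TPM against 3.17 to 82.0 TPM (median 12.1). The lymphatic growth factor *Vegfc* was even across lung, at 34.9, 46.8, 49.1 and 40.1 TPM against 0.37 to 3.60 TPM (median 1.54), whereas its relative *Vegfd* had 131, 143, 3.02 and 10.2 TPM. The 2 that fell were *Wnt7b* (0.02, 0.04, 1.47 and 0.92 TPM against 8.70 to 46.0 TPM (median 10.9)) and *Igfbp5*.

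Among 9 tested EGF family genes, 2 were DEGs higher and 2 lower, with a ligand and a receptor on each side. Both lower ones were under 1 TPM throughout lung and could only fall. The receptor *Egfr* was lung-high, with 40.5, 42.0, 10.0 and 13.1 TPM against 0.32 to 3.67 TPM (median 2.33). So was the ligand *Nrg1*, with 64.8, 81.6, 10.5 and 13.04 TPM against 0.89 to 3.26 TPM (median 2.02). *Areg*, an EGFR ligand of mammary ducts, was lung-low at 0.21, 0.17, 0.11 and 0 TPM against 16.6 to 224 TPM (median 51.0), a log2 difference of -5.54 (SE 0.47, adjusted p = 2.18e-06). *Erbb3*, the receptor for neuregulins, was lung-low too, at 0, 0, 0 and 0.02 TPM against 4.31 to 6.14 TPM (median 5.13). *Erbb2* had a log2 difference of -0.80 that missed the fold threshold.

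Chemokines and cytokines gave 9 DEGs lower and 3 higher among 21 tested (5.57% and 7.18% of all genes). Under 1 TPM throughout lung were 6 of the 21, which could only fall, and 4 of the 9 were among them. The lung difference of 13 differed between CD44 labels, as it did for 9.56% of all genes. *Cxcl12*, the ligand of CXCR4 that retains cells in marrow and lung stroma, had the largest rise of the list. It was at 1687, 2522, 30.04 and 36.2 TPM in lung, at most 0.01 TPM in LN and BM, and 2.38 and 0.4 TPM in MFP, a log2 difference of 8.05 (SE 0.86, adjusted p = 1.43e-05). *Il6* rose as well, at 71.0, 56.6, 1.07 and 7.85 TPM against at most 0.14 TPM. The neutrophil attractants *Cxcl5*, *Cxcl1* and *Cxcl2*, neighbors on chromosome 5 with *Rassf6* between 90603076 and 90905938 in a run of 4 lung-low genes, fell. *Cxcl5* had 3.80, 2.94, 0 and 0 TPM against 15.6 to 2555 TPM (median 209), with lung CD44high at 0. *Cxcl1* had 41.9, 42.6, 15.9 and 5.33 TPM against 45.8 to 2119 TPM (median 159), and its lung CD44low libraries came close to the lowest LN or BM library. *Cxcl2* lost its call without lung CD44high replicate 1 or 2 (-1.94 in both). *Csf3*, the granulocyte colony-stimulating factor, was at 0 in all 4 lung libraries and at 2.25 to 219.8 TPM (median 38.6) in LN and BM. Among acute phase and antimicrobial genes 8 of 17 were DEGs lower and none higher (5.57% and 7.18% of all genes). But 8 of the 17 were under 1 TPM throughout lung and could only fall, and 5 of the DEGs were among these. *Wfdc2*, of the whey acidic protein family, led them with 0.39, 0.21, 0.35 and 0 TPM against 302 to 706 TPM (median 414). *Lcn2*, which binds bacterial iron carriers, had 275, 130.4, 3.63 and 6.49 TPM against 46.0 to 12527 TPM (median 2710.0), so its values overlapped and it was no lung-low gene.

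Cell cycle genes held the largest fall of all. Of 27 tested, 19 were DEGs lower in lung and 18 lung-low, with 2 higher and a median log2 difference of -3.23. *Birc5* (survivin; ENSMUSG00000017716.15, mm10 chromosome 11 from 117849251 to 117855743), a subunit of the chromosomal passenger complex, had 1.67, 3.23, 0.45 and 8.88 TPM in lung against 345 to 4172 TPM (median 3137) in LN and BM, a log2 difference of -9.41 (SE 0.62, adjusted p = 2.67e-07). Its 2 MFP libraries were at 161 and 146 TPM, above lung and below all 8 LN and BM values. The lowest LN and BM value was LN CD44low replicate 2, which was also lowest for *Plk1* and *Ccna2*. The mitotic kinase *Plk1* had 0.19, 1.09, 0.12 and 3.10 TPM against 12.3 to 144 TPM (median 111), with MFP at 79.3 and 80.2 TPM. Cyclin A2 (*Ccna2*) had 0.27, 0.98, 0.32 and 2.84 TPM against 25.4 to 231 TPM (median 179), with MFP at 101 and 84.0 TPM. Unlike for *Birc5*, the MFP values of both lay within the LN and BM range. Replication helicase genes fell too, by differing amounts. *Mcm3* fell less than others, with 4.14, 4.94, 4.03 and 7.04 TPM against 9.34 to 62.6 TPM (median 28.9). *Mcm6* had 0.6, 1.65, 1.62 and 5.97 TPM against 60.8 to 196 TPM (median 150.0). *Mcm5* had 0.27, 0.76, 1 and 6.94 TPM against 36.0 to 155 TPM (median 108). In all of *Birc5*, *Plk1*, *Ccna2*, *Mcm6*, *Mcm5* and *Top2a*, lung CD44high replicate 2 was the highest lung library. For *Cdk1* the highest lung library was CD44low replicate 1, at 31.9, 27.9, 1.64 and 25.3 TPM against 87.5 to 440.1 TPM (median 338). The inhibitor *Cdkn2b* was the list's lung-high gene, at 113, 71.6, 0.49 and 0.26 TPM against at most 0.16 TPM, and MFP had 66.2 and 51.9 TPM.

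The word TTTGAA, the cell cycle homology region of mitotic promoters, was searched on both strands in the same way. It was in 6 of 14 matched promoters of lung-low cell cycle genes. It was in 11.8% of all tested promoters, 21.3% of lung-low and 11.1% of lung-high promoters. CACCTG was in none of the 14. The promoters of *Plk1*, *Cdk1* and *Top2a* are shown as examples of the 6, with the match, on either strand, in capitals.
Plk1 promoter, chr7:122159185-122159484, plus strand: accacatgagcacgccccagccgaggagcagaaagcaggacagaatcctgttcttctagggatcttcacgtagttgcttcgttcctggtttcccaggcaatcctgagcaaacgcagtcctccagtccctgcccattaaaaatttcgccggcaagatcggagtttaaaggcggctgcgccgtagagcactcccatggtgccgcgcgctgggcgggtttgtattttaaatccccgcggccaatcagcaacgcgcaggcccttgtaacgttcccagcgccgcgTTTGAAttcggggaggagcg
Cdk1 promoter, chr10:69352863-69353162, minus strand: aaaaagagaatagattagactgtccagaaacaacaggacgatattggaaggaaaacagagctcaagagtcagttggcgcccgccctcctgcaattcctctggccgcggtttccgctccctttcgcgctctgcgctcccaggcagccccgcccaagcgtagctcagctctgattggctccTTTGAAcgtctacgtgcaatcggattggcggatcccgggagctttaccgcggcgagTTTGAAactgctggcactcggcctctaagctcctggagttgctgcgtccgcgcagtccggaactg
Top2a promoter, chr11:99024140-99024439, minus strand: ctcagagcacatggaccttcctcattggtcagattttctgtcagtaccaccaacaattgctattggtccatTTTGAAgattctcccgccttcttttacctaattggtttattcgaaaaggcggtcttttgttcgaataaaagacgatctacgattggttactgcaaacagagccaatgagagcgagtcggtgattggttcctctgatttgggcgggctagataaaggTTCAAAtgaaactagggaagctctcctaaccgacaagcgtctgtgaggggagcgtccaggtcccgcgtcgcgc

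The single-cell libraries gave another order for this group. They hold 1 library per group, so there is no test, and intervals are exact Poisson 95% intervals that cover counting error only. With 1236, 348 and 2562 cells kept, at median counts of 557, 4011 and 585 a cell, counts were summed over the cells of lung CD44high, lung CD44low and LN CD44high and given per 10000. *Top2a*, the mitotic topoisomerase, had 3.17 (2.94 to 3.41) per 10000 in lung CD44high, 1.38 (1.23 to 1.55) in lung CD44low and 1.52 (1.42 to 1.63) in LN CD44high. *Cdk1*, the mitotic kinase, had 2.62 (2.41 to 2.84) per 10000 in lung CD44high, 0.946 (0.822 to 1.08) in lung CD44low and 1.27 (1.18 to 1.37) in LN CD44high. In both genes lung CD44high was above LN CD44high, although the bulk libraries had the reverse order. Over the 13350 tested genes matched in the single-cell tables, the interval of lung CD44high lay above that of LN CD44high in 22.9% and below it in 18.91%, and that of lung CD44low in 23.45% and 20.28%. For 12 of the 18 lung-low cell cycle genes the interval of lung CD44high lay above that of LN CD44high and for 2 it lay below. The interval of lung CD44low lay below LN in 14 and above in none. *Birc5* kept the bulk order in both lung libraries, at 1.68 (1.51 to 1.86) per 10000 in lung CD44high, 0.635 (0.534 to 0.749) in lung CD44low and 8.78 (8.53 to 9.04) in LN CD44high. *Epcam* had 0.0136 (0.0028 to 0.0397) per 10000 in lung CD44high, 0 (0 to 0.0166) in lung CD44low and 1.77 (1.66 to 1.89) in LN CD44high. Of 18 lung-low adhesion and keratin genes the lung CD44high interval lay below LN in 12 and above in 3, *Krt18* among them. *Krt18* had 2.59 (2.38 to 2.81) per 10000 in lung CD44high, 0.522 (0.432 to 0.627) in lung CD44low and 1.17 (1.08 to 1.26) in LN CD44high. The lung libraries differed from each other in depth, and the part of cell number, culture and depth in these orders was not tested.

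**Figure D4:**
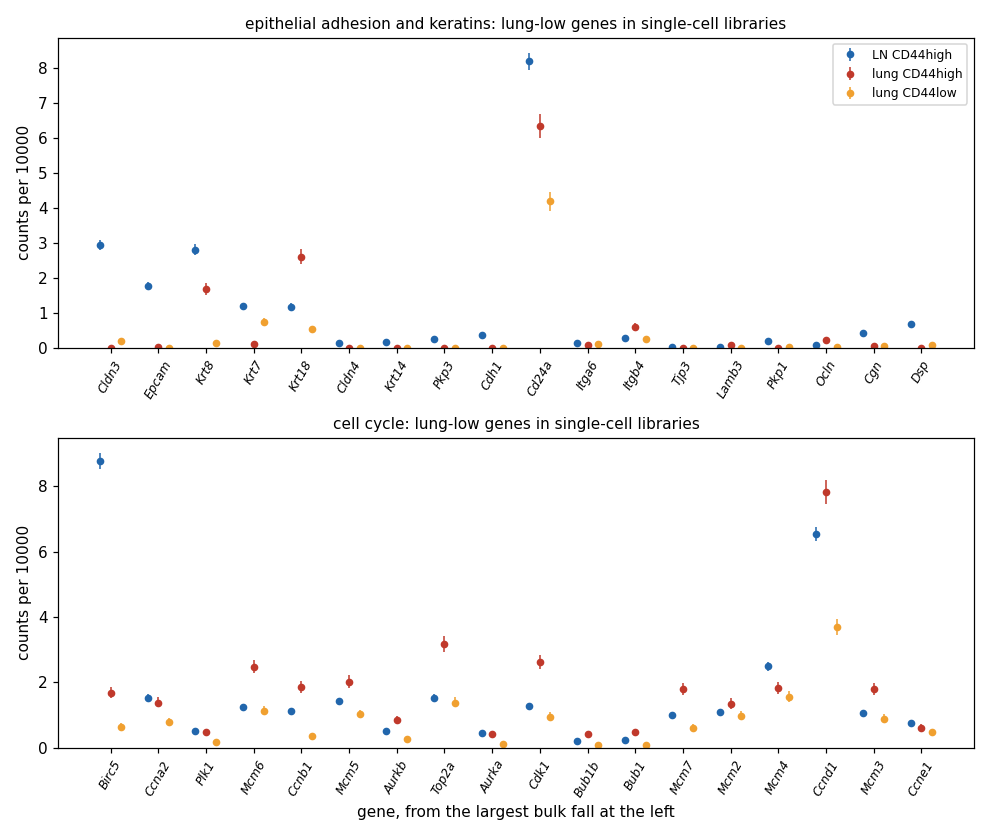
Counts per 10000 in the 3 single-cell libraries for the 18 lung-low adhesion and keratin genes (top) and the 18 lung-low cell cycle genes (bottom), with exact Poisson 95% intervals. In the lower panel lung CD44high (red) is at or above LN CD44high (blue) for most genes, with *Birc5* far below. In the upper panel the largest LN levels have no red counterpart apart from *Krt8*, *Krt18* and *Cd24a*.

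Over all members the single-cell order followed the bulk order more often for the rises. Of 593 lung-high genes with at least 20 counts over the 3 libraries, 497 (83.8%) were above LN in both lung libraries, against 34.7% of 11280 tested genes with that many counts. Of 619 lung-low genes, 363 (58.6%) were below LN in both, against 32.4%. *Fn1* had 35.0 (34.3 to 35.8) per 10000 in lung CD44high, 54.2 (53.3 to 55.2) in lung CD44low and 4.58 (4.39 to 4.76) in LN CD44high. *Aebp1* had 6.57 (6.23 to 6.92) per 10000 in lung CD44high, 3.72 (3.47 to 3.98) in lung CD44low and 0.208 (0.171 to 0.251) in LN CD44high. Both genes were higher in each lung library. *Dcn*, the largest bulk rise, was nearly missing, with 0 (0 to 0.0167) per 10000 in lung CD44high, 0.0991 (0.0621 to 0.15) in lung CD44low and 0 (0 to 0.007) in LN CD44high.

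A further set of lung-low genes was high in LN and BM cells but not in MFP cells. Of the 725, both MFP libraries lay nearer the lung mean in 184 (25.4%) and nearer the LN and BM mean in 500 (69.0%). The homeobox gene *Rhox5* (ENSMUSG00000095180.8, mm10 chromosome X from 37804842 to 37808876), normally of the germline and placenta, was at 0 in all 4 lung libraries, at 396 to 515 TPM (median 428) in LN and BM, and at 0.96 and 0.21 TPM in MFP. Its log2 difference was -8.79 (SE 0.12, adjusted p = 2.92e-13). The highest of the 8 LN and BM values of *Rhox5* was 1.30 times the lowest, the narrowest ratio among the 20 largest falls. *Col2a1*, the cartilage collagen, had 0.02, 0.14, 0 and 0 TPM against 49.7 to 299.7 TPM (median 244), with 0.38 and 0.02 TPM in MFP. *Wfdc18*, another whey acidic protein family gene, had 0.6, 0.16, 0 and 0 TPM against 30.7 to 700.0 TPM (median 469), with MFP at 2.15 and 0.54 TPM. The water channel *Aqp5* had 0, 0, 1.64 and 5.17 TPM against 135 to 611 TPM (median 422), with MFP at 5.50 and 7.47 TPM. In these genes both MFP libraries were far below the lowest LN or BM value. The iron carrier *Trf* had 0.96, 0.64, 0.29 and 0.17 TPM against 3.54 to 956 TPM (median 197), with MFP at 2 and 0.27 TPM. *Serpine2*, a protease inhibitor, had 83.5, 129.7, 10.1 and 14.3 TPM in lung, 372 to 2724 TPM (median 2090.3) in LN and BM and 151 and 72.7 TPM in MFP. MFP entered no fit, and these are the values side by side.

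Among the 701 lung-high genes, both MFP libraries lay nearer lung in 100 (14.3%) and nearer LN and BM in 524 (74.8%). *Ctla2a*, a cathepsin inhibitor, has near-identical neighbors on chromosome 13, and reads could have been split between the copies. It had 1497, 1599, 507 and 443 TPM in lung, 0 to 4.43 TPM (median 1.67) in LN and BM and 90.6 and 51.8 TPM in MFP. *Fbln2* and the ubiquitin ligase gene *Trim35* had the same order, with MFP at 79.8 and 30.7 TPM and 14.3 and 10.3 TPM. *Ccn5*, *Colec12* and *Pros1* were low in MFP instead, at 0.3 and 1.32 TPM, 0.22 and 0 TPM and 0.08 and 0.07 TPM.

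**Figure D5:**
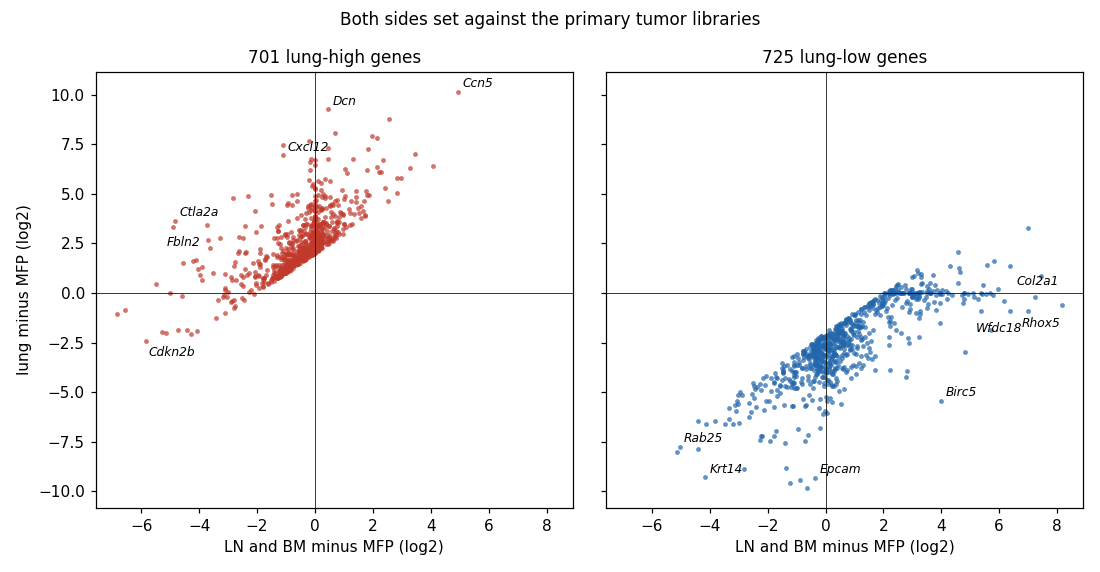
Mean log2(TPM + 1) of LN and BM minus MFP (x axis) and of lung minus MFP (y axis) for the 701 lung-high (left) and 725 lung-low genes (right). Points on the horizontal axis have lung near MFP (*Rhox5*, *Col2a1*), points on the vertical axis have LN and BM near MFP (*Epcam*, *Dcn*), and *Birc5* lies apart from both axes.

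Of the 20 largest rises, 5 were genes of chromosome X (*Gpc4*, *Tceal8*, *Bex4*, *Fhl1* and *Arxes2*), which holds 3.49% of genes tested. *Nox4*, which makes hydrogen peroxide, had 94.4, 91.8, 549 and 318 TPM and at most 0.07 TPM in LN and BM (log2 difference 7.61 (SE 0.37, adjusted p = 1.51e-08)), with lung CD44high the higher. The heparan sulfate proteoglycan gene *Gpc4* also rose, at 89.96, 105, 287 and 244 TPM. The anticoagulant protein S gene *Pros1* was level across lung at 125, 169, 202 and 196 TPM against 0.28 to 0.86 TPM (median 0.41). *Tceal8* and *Bex4*, small X-linked genes from families of similar copies between which reads could be split, were listed at 0 in all 8 LN and BM libraries. In lung *Tceal8* had 229, 276, 132 and 327 TPM and *Bex4* had 40.9, 88.4, 95.4 and 155 TPM. *Xist*, the RNA of the inactive X chromosome, had 1.20, 1.54, 17.6 and 7.13 TPM in lung and at most 0.01 TPM in LN and BM, with 5.53 and 6.40 TPM in MFP. Its log2 difference was 2.42 (SE 0.40, adjusted p = 0.000377), and without lung CD44high replicate 1 it was 1.90. Chromosome X held 6.70% of its 522 tested genes as lung-high and 6.90% as lung-low, within the ranges of 2.89% to 7.80% for lung-high and above the 3.47% to 6.15% for lung-low across the autosomes. Of 13 tested imprinted genes, 5 were DEGs higher and 1 lower. The imprinted genes *Sgce* and *Grb10* were lung-high at 49.6, 46.4, 28.3 and 32.1 TPM and 187, 269, 2.38 and 1.18 TPM, with at most 0.03 TPM and 0 in LN and BM.

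Transcription factors of lung mesenchyme were higher in 5 of 15 tested cases and lower in none (7.18% and 5.57% of all genes). Under 1 TPM in all LN and BM libraries were 7 of the 15, which could only rise, and 3 of the 5 came from them. At 1 TPM only in the lung CD44low libraries were 6 of those 7. *Foxf2* was high in all 4 libraries, at 22.2, 21.6, 12.8 and 9.50 TPM against at most 0.64 TPM (log2 difference 3.95 (SE 0.22, adjusted p = 6.8e-08)). Its relative *Foxf1* was high in CD44low only, at 94.8, 98.5, 1.08 and 0.19 TPM against 0.5 to 4.36 TPM (median 1.13). It was not called without lung CD44low replicate 1 or 2 (1.77 and 1.75) or BM CD44low replicate 1 (2.30, adjusted p = 0.0501). *Tcf21* rose on the same 2 libraries, at 16.2, 27.6, 0 and 0 TPM, as did the values of *Tbx5*, at 7.99, 7.58, 0 and 0 TPM, whose log2 difference of 1.57 missed the fold threshold. *Tcf21* was not called without lung CD44low replicate 1 or 2 (1.78 and 1.51). The orphan receptor gene *Nr2f1* ran the other way, at 2.69, 4.65, 54.6 and 33.2 TPM against 0.32 to 1.25 TPM (median 0.81). Of 17 tested Hox genes, 11 reached 1 TPM in the lung CD44low libraries only, so that filter set their direction. Of these, 4 were DEGs higher, as was 1 of the rest, with 1 lower, and none of those higher was lung-high. *Hoxb5* had 36.2, 40.3, 0 and 0 TPM against at most 0.19 TPM, with both lung CD44high libraries at 0, and it was not called without lung CD44low replicate 1 or 2 (1.88 and 1.82). *Hoxa10*, the gene that fell, had 0.49, 0.56, 0 and 0 TPM against 3.65 to 7.66 TPM (median 5.03).

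Of 13 tested contractile genes 6 were DEGs higher and 1 lower, and the lung difference of 7 differed between CD44 labels. *Acta2*, smooth muscle actin, had 657, 711, 1.36 and 0.56 TPM against 0 to 0.82 TPM (median 0.14). *Cnn2* and *Cald1* were lung-high, the latter not called without lung CD44low replicate 1 or 2 (1.94 and 1.95). Of 20 tested matrix proteases and inhibitors 6 were higher and 2 lower, and 14 differed between labels. *Timp3*, which inhibits metalloproteinases, had 2679.9, 2824, 401 and 426 TPM against 27.1 to 73.1 TPM (median 55.2). The protease *Mmp19* had 37.7, 44.9, 40.1 and 27.4 TPM against 0.48 to 1.76 TPM (median 0.915), level across the CD44 labels. *Plaur*, the urokinase receptor, fell, with 20.8, 24.8, 0.66 and 1.03 TPM against 29.1 to 120.1 TPM (median 65.9).

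Over all genes tested 12.8% were called in either direction. Of 17 tested interferon-stimulated genes 2 fell, the ubiquitin-like *Isg15* (3.92, 3.84, 1.19 and 1.22 TPM against 6.43 to 44.0 TPM (median 17.2)) and *Oasl2*, and none rose. Of 10 germline and Rhox genes 2 fell, *Rhox5* and *Uhrf1*, a partner of the maintenance DNA methyltransferase, which had 0.9, 0.84, 0.3 and 1.58 TPM against 16.4 to 74.4 TPM (median 49.1). Of 9 mammary and milk genes 2 rose and 3 fell, and the estrogen receptor gene *Esr1* was the lung-high one, at 3.74, 5, 30.04 and 16.1 TPM against 0.24 to 0.93 TPM (median 0.47). Of 14 retinoid and aldehyde dehydrogenase genes 2 rose and 1 fell. *Aldh1a1*, which rose, had 610.2, 601, 1.99 and 20.9 TPM against 0 to 6.25 TPM (median 0.73). *Aldh1a3*, which fell, had 0, 0.04, 0.13 and 0.24 TPM against 2.57 to 5.89 TPM (median 3.44).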

How the data were processed

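Bulk libraries were made with a modified SMART-seq2 protocol, and the deposited table holds TPM per gene that the authors obtained by alignment with STAR and quantification with RSEM on mm10 with GENCODE vM21 annotation. TPM keeps no read depth, so the depth behind each value is unknown here, and 11508 to 13052 genes had at least 1 TPM per library. The authors' own test used read counts that were not used here. Single-cell libraries were prepared with SureCell on ddSeq, and the deposited values are counts per gene and cell from kallisto, unfiltered. Cells with over 250 genes and under 10% mitochondrial counts were kept, no doublet caller was run, and cells are named by library and number, so barcodes shared between libraries could not be counted.

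Genes that reached 1 TPM in 2 or more of the 12 libraries were kept, and their log2(TPM + 1) was fitted with limma 3.58.1 in R 4.3.3 (lmFit, eBayes with trend), with lung and the CD44 label as terms. Fold changes on this scale understate the change of low genes. Fits of 6 group means gave the difference between CD44 labels and those within labels, and a fit of 3 organs gave lung against LN and against BM. P-values were Benjamini-Hochberg adjusted over all genes tested. Per the study's methods, the 2 replicates of a group were isolates from different mice. The members and gene lists were chosen with earlier results of these data known. Genes were named if among the 20 largest rises or falls without overlap, if members of a list, if sort or label markers, among the 5 largest label differences each way, or nearest the fold threshold. Outside that choice, the genes that stand beside marker sums are cell type markers, and the neighbors named beside runs of members (*Rassf6* and those in the closing observations other than *Birc5* and *Rnase4*) were named after their values were seen. The fitting was tested on simulated data. Alternatives were a pseudocount of 0.1, other filters, median-ratio scaling, library weights, no CD44 term, a replicate block and each library left out.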

Additional observations from a re-analysis of the deposited data

Results flagged for a closer look

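The lung difference from LN and BM itself differed between CD44high and CD44low libraries (limma, 6 group means, adjusted p at most 0.0398) for 44 of the genes named above, each value being the log2 difference among CD44high minus that among CD44low libraries. It was above 0 in 10: 6.44 for *Gata3*, 5.32 for *Cd24a*, 4.26 for *Spint2*, 3.34 for *Wnt5a*, 3.33 for *Krt8*, 3.31 for *Nr2f1*, 2.89 for *Krt18*, 2.38 for *Xist*, 2.20 for *Nox4* and 2.02 for *Esr1*. It was below 0 in 34. Among lung-high genes the values were -8.42 for *Fgf10*, -6.37 for *Grb10*, -5.96 for *Cdkn2b*, -5.92 for *Cxcl12*, -5.48 for *Dcn*, -4.36 for *Vegfd*, -3.94 for *Igf2*, -3.88 for *Igfbp4*, -3.85 for *Fhl1*, -3.83 for *Il6*, -2.95 for *Igf1*, -2.67 for *Timp3*, -2.54 for *Bmp4*, -2.36 for *Cald1* and -2.23 for *Nrg1*. Among lung-low genes they were -5.74 for *Cxcl5*, -4.35 for *Cxcl1*, -3.99 for *Serpine2*, -3.29 for *Plaur*, -2.81 for *Csf3* and -2.06 for *Cxcl2*. Such a value can also come from a label difference within LN and BM. That of *Csf3* did so entirely, since it was at 0 in all 4 lung libraries. Among genes that were neither, the values were -12.27 for *Bgn*, -8.65 for *Acta2*, -8.25 for *Lcn2*, -8.05 for *Lum*, -7.64 for *Col1a1*, -5.72 for *Aldh1a1*, -5.67 for *Col1a2*, -5.53 for *Foxf1*, -5.51 for *Thy1*, -5.29 for *Hoxb5*, -5.05 for *Snai1*, -4.52 for *Tcf21* and -3.13 for *Tbx5*. The part of other cells and of culture in these differences was not tested.

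A single library stood apart from the rest of its set by Dixon's rule at the 95% level, which marks about 1 in 20 sets by chance, in the following cases. BM CD44low replicate 1 did so among the 8 LN and BM libraries for *Lum* (0.12 TPM). Among the 8 LN and BM libraries, BM CD44low replicate 2 stood apart for *Esrp1* (36.0 TPM), *Foxf1* (4.36 TPM), *Spint1* (19.9 TPM), *Trim35* (0.07 TPM), *Twist1* (4.99 TPM) and *Wnt7b* (46.0 TPM). For *Acta2* (0.82 TPM), it was LN CD44high replicate 2 among the 8 LN and BM libraries. LN CD44low replicate 1 did so among the 8 LN and BM libraries for *Aqp5* (135 TPM), *Col1a2* (0.97 TPM), *Foxf2* (0.64 TPM), *Pkp1* (17.1 TPM) and *Serpine2* (372 TPM). Among the 8 LN and BM libraries, LN CD44low replicate 2 stood apart for *Birc5* (345 TPM), *Ccna2* (25.4 TPM), *Cdk1* (87.5 TPM), *Plk1* (12.3 TPM), *Top2a* (14.3 TPM) and *Twist2* (0.1 TPM). For *Cdk1* (1.64 TPM), it was lung CD44high replicate 1 among the 4 lung libraries. Lung CD44high replicate 2 did so among the 4 lung libraries for *Msln* (1.87 TPM). Among the 4 lung libraries, lung CD44low replicate 2 stood apart for *Col2a1* (0.14 TPM). In other sets every library but 1 was at 0, which meets the same rule whatever the remaining value is, so the chance rate does not apply to them and nothing is read from them. They were *Cdh1* (0.03 TPM in lung CD44high replicate 2), *Erbb3* (0.02 TPM in lung CD44high replicate 2), *Grhl2* (0.24 TPM in lung CD44high replicate 1), *Igfbp5* (0.03 TPM in lung CD44low replicate 1) and *Rab25* (0.06 TPM in lung CD44low replicate 2) among the 4 lung libraries, and *Colec12* (0.1 TPM in BM CD44low replicate 2), *Cxcl12* (0.01 TPM in BM CD44low replicate 2), *Igf2* (0.08 TPM in BM CD44low replicate 2) and *Tcf21* (0.15 TPM in BM CD44high replicate 2) among the 8 LN and BM libraries. For the 5 cell cycle genes among its cases, LN CD44low replicate 2 had the lowest LN or BM value, and all lung values were lower.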

How the results depend on the processing

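With a pseudocount of 0.1 instead of 1, DEGs became 1868 higher and 1622 lower in lung, 1879 and 1478 against LN, 1468 and 1728 against BM, and 778 with a larger lung difference in CD44high, since low genes then have larger log2 differences. The other alternatives that kept all libraries left these counts within 1.5 times. Leaving out each library in turn gave 890 to 1209 higher and 817 to 875 lower DEGs, 675 to 986 and 717 to 780 with full separation, and 2024 to 2972 and 1907 to 2154 genes separated whatever their fold. The differences between CD44 labels ranged from 298 to 554 upward and from 493 to 1362 downward, the lowest upward count being without lung CD44low replicate 1. No value of a named gene turned its direction. Under every alternative of the lung comparison, 467 lung-high and 614 lung-low genes stayed called, and library weights alone left 611 and 666. Leaving out a library also recomputed the filter, which dropped 28 lung-high genes without either lung CD44low replicate and 6 without either lung CD44high replicate. With the genes of the 12-library filter kept, an alternative chosen after seeing the data, 664 and 647 lung-high genes stayed called without lung CD44low replicate 1 or 2. *Tcf21* and *Hoxb5* lost their calls in those fits, while *Cdkn2b* (2.57 and 2.81) and *Fgf10* (3.34 and 3.24) kept theirs. Values of named genes were on their original side of the thresholds in 7076 cases, gained a call in 204 and lost one in 97.

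The replicate block gave 1072 higher and 830 lower DEGs, 435 and 944 differences between labels, and all 701 and 725 members called. The labels do not say whether equal replicate numbers in different groups share a mouse. Over 15 pairs of groups the correlation of deviations ran from -0.20 to 0.17, with 3 above 0.1. Deviations from means of 2 libraries cannot settle that question. TPM without read counts limits what can be said of low genes, and 2 libraries a group limit each label's estimate. Median-ratio scaling left both MFP libraries nearer lung for 74 lung-high and 203 lung-low genes, and keeping all barcodes left the single-cell order at 84.9% and 59.1%.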

Other observations

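Lung-low genes were uneven along the genome. Over 213 windows of 2 Mb with at least 20 tested genes, whose medians had a midpoint of 0.20 on the log2 scale, the lowest medians were at 22 to 24 Mb (-1.47, 52 genes) and 20 to 22 Mb (-1.41, 35 genes) of mm10 chromosome 13. In them 5 and 3 genes were DEGs higher in lung, 3 and 1 of them lung-high. These 87 genes include 52 replication-dependent histone genes, of which 20 were DEGs lower in lung and 15 lung-low, with a median log2 difference of -1.55, and 35 other genes, of which 4 were lower, 1 was lung-low and the median was -1.0003. Over all genes tested 5.57% were DEGs lower and 4.84% lung-low. Histone genes there are near copies of each other and many lack a poly(A) tail, so their TPM is uncertain. The windows were 1.30 and 1.10 higher in LN and BM than in MFP, while lung differed from MFP by 0.11 and 0.14.

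The next lowest windows lay on chromosome 11, at 116 to 118 Mb (-1.005, 57 genes, 13 of them lung-low, 0 lung-high and 2 DEGs higher) and 114 to 116 Mb (-0.81, 35 genes, 10 lung-low, 1 lung-high and 1 DEG higher). They hold the neighbor runs of lung-low genes *Tk1*, *Afmid* and *Birc5* and of *Jpt1*, *Sumo2* and *Nup85*. The median lung minus MFP difference there was -0.55 and -0.69 on the log2 scale. Among rises, 3 neighbors on chromosome 6, the complement genes *C1rl*, *C1ra* and *C1s1*, were all lung-high, as were *Rnase4*, *Ang* and *Rnase1* on chromosome 14, where overlapping transcripts may share reads. These windows and runs were chosen after their values were seen, and they carry no test.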
